A study of Mus musculus with 9 samples.

Results

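The genes that build the mitotic spindle, segregate chromosomes and divide the cell were followed in mouse bone marrow-derived macrophages (BMDM) that had received exosomes, small vesicles released by cells. The set holds 48 genes from a written list of mitotic kinases, cyclins, kinetochore and spindle proteins, condensins and cytokinesis factors, matched to Ensembl IDs by symbol through GENCODE M21. The rule names genes and uses no expression value. All 48 were among the 55536 gene IDs of the count table, all had counts in each of the 9 libraries, and all were among the 13815 genes with enough counts to be tested.

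The recipient cells of all 3 groups were wild-type (labelled WT) macrophages grown from bone marrow of male mice aged 6 to 12 weeks. The marrow was given 25 ng/mL of M-CSF, a growth factor macrophages need to mature and divide, over 6 days. The cells then received, for 18 hours, PBS, exosomes of wild-type donors (WT-BMDM-exo) or exosomes of ApoE-deficient donors (EKO-BMDM-exo), the exosomes at 2e+09 particles/mL. ApoE is a lipid carrier protein that macrophages secrete. Each group had 3 libraries, described as biological replicates. Neither separate mice nor separate exosome preparations are stated for them, so p-values measure spread among these libraries, which may be technical. No gene was altered in the sequenced cells, so the labels cannot be checked against a targeted gene. The groups were compared to find transcripts of macrophages that differ after exosomes of either donor genotype.

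Libraries held 28581306 to 35929596 counts. The 12 macrophage markers examined all passed the filter on low counts, at a summed 27200 to 28500 CPM (counts scaled to a common library size) after PBS, 25200 to 25800 CPM after wild-type exosomes and 24500 to 25600 CPM after ApoE-deficient exosomes. Replicate 3 of wild-type exosomes stood apart on principal component 1 of all genes tested, at 57.48 against -16.83 to 3.434. On component 2, replicate 2 of wild-type exosomes (-45.4) and replicate 2 of ApoE-deficient exosomes (38) lay at opposite ends.

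Mitotic genes are transcribed late in the cell cycle. In resting cells the DREAM complex holds them silent, and in cycling cells the MuvB core, joined by B-MYB and FOXM1, activates them. MuvB contacts a short promoter element, the cell cycle genes homology region (CHR), and the trimeric factor NF-Y binds CCAAT boxes nearby. The transcripts therefore mark dividing cells in a population. In macrophage cultures, division depends on M-CSF and ceases as the cells mature.

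The list was chosen by function, and the promoters show what its genes share in sequence. RefSeq windows on GRCm38.p6, from 250 bases before the annotated start to 50 bases after it, were present for 40 of the 48 genes (42 windows). They were searched on both strands for the CHR in its forms TTTGAA and TTCGAA and for CCAAT. Matches that shared bases were each counted, and TTCGAA, which reads the same on both strands, was counted once. The 250 bases before the start are printed for 5 genes whose levels are described below, to show the arrangement of these elements. Each reads 5′ to 3′ on the gene's strand, which is the minus strand for all 5, and capitals mark the matches, with ATTGG and TTCAAA standing for matches on the opposite strand. The windows are chr11:99024190-99024439 for Top2a, chr7:135716380-135716629 for Mki67, chr9:70421555-70421804 for Ccnb2, chr10:69352913-69353162 for Cdk1 and chr4:118437344-118437593 for Cdc20.
Top2a: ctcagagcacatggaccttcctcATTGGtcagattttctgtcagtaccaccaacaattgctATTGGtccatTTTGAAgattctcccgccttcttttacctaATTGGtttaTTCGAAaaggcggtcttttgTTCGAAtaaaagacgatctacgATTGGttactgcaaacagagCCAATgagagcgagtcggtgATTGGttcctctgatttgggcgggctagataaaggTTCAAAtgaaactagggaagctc
Mki67: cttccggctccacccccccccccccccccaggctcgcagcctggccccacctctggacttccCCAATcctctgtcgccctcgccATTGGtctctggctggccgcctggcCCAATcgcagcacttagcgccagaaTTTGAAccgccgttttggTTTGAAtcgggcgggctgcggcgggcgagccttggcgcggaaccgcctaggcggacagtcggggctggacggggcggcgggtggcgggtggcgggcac
Ccnb2: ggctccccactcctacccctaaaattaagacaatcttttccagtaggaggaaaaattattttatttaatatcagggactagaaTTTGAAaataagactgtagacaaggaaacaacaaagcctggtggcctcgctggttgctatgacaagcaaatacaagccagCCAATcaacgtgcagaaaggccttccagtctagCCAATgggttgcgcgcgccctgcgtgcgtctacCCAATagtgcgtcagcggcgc
Cdk1: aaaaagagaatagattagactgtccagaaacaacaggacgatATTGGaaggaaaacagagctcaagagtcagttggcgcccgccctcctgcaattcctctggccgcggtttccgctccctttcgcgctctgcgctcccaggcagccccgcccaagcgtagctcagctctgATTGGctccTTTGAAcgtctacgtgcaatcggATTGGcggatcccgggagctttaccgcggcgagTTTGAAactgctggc
Cdc20: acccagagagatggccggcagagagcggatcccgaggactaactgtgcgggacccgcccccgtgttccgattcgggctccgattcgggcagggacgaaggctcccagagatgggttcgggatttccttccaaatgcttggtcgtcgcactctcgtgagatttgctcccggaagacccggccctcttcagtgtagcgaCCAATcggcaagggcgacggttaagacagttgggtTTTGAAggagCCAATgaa
In Cdc20 a CHR at -18 lies between CCAAT boxes at -53 and -8. Cdk1 has CHRs at -71 and -15 among 3 CCAAT boxes on the opposite strand. Ccnb2 has a row of 3 CCAAT boxes at -87, -54 and -21, with a CHR at -167 and a further one just inside the transcript, at base 5, where the start is base 1 and the base before it -1. Top2a has 6 CCAAT boxes and 4 CHRs, 2 of each form, and Mki67 has 3 CCAAT boxes upstream of CHRs at -116 and -98.

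The CHR was present in most windows of the list. TTTGAA was found in 34 of 42 windows (81.0%), against 17.9% of all 32851 windows of the same length. A CHR of either form was found in 83.3% of the list's windows and 19.2% of all, CCAAT in 76.2% and 37.4%, and both together in 71.4% and 7.52%. Of 39 windows of DNA replication and S phase genes, 10.3% held TTTGAA, and of 57 windows of other genes of the G2 and M phases, 47.4%. The matches gathered at the start site: the median first base of TTTGAA was base 3 for the list and base -124 over all windows, and 75.6% of the list's matches lay on the gene's strand against 53.3%. Matches of the other G2 and M phase genes also lay near the start, with a median first base of -17, and 40.0% of them were on the gene's strand. No CHR was found in the windows of Ccnb1, Mad2l1, Cenpe, Nuf2, Birc5, Nusap1 and Ncaph, which says only that these letters are not in these 300 bases. A match is a description of the sequence and not evidence of binding.

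**Figure D1:**
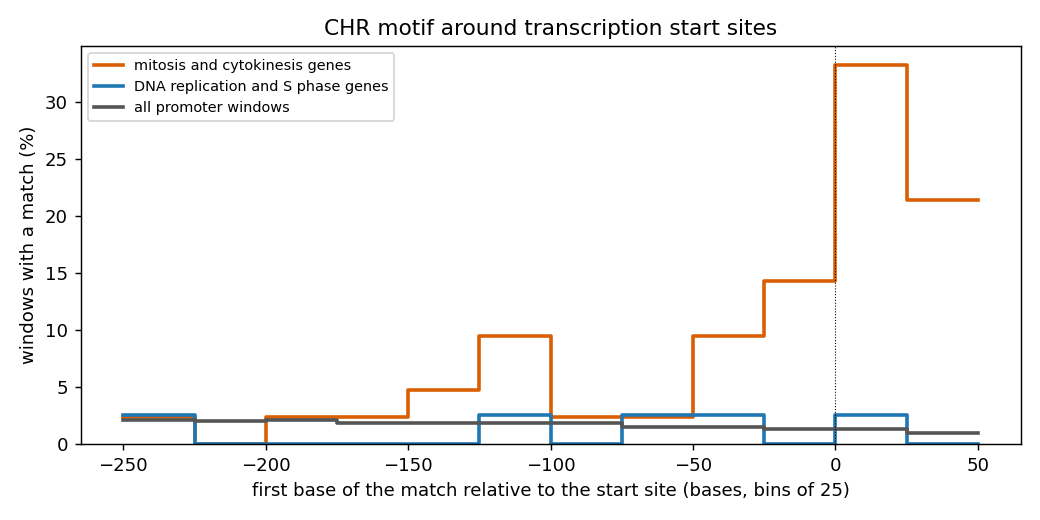
Share of promoter windows (vertical axis, %) with the CHR element TTTGAA on either strand, by the position of its first base relative to the start site (horizontal axis, bins of 25 bases), for mitosis and cytokinesis genes (42 windows), DNA replication and S phase genes (39 windows) and all 32851 windows. In the 25 bases from the start site, 33.3% of the mitosis windows held a match, against 1.31% of all windows.

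Levels per transcript length (FPKM, computed from the counts and the summed exon length of each gene) spanned a wide range. The median over the 48 genes was 3.06 FPKM, below the 4.28 FPKM of all genes tested, and 32 of the 48 lay under that value. Incenp, the scaffold of the chromosomal passenger complex, was highest at 22.3 ± 0.93 FPKM (SD, n = 9 libraries), then Mki67, the Ki-67 protein that coats mitotic chromosomes, at 16.9 ± 1.33, and Smc4, an ATPase subunit of condensin, at 14.6 ± 0.79. The ranges of these genes over the libraries did not overlap one another's except for those of Mki67 (15.2 to 19.1) and Smc4 (13.5 to 15.7). Top2a, the topoisomerase that untangles sister chromatids, followed at 8.28 ± 0.653 (7.3 to 9.42), then Ccnb2 at 7.35 ± 1.1 (6.32 to 9.66) and Plk1 at 6.92 ± 0.572 (6.49 to 7.91), with ranges that overlapped. Lowest were Kif15 at 0.998 ± 0.246, the checkpoint kinase Ttk at 0.685 ± 0.19 and Ccnb1 at 0.56 ± 0.168, each within the range of its neighbour.

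**Figure D2:**
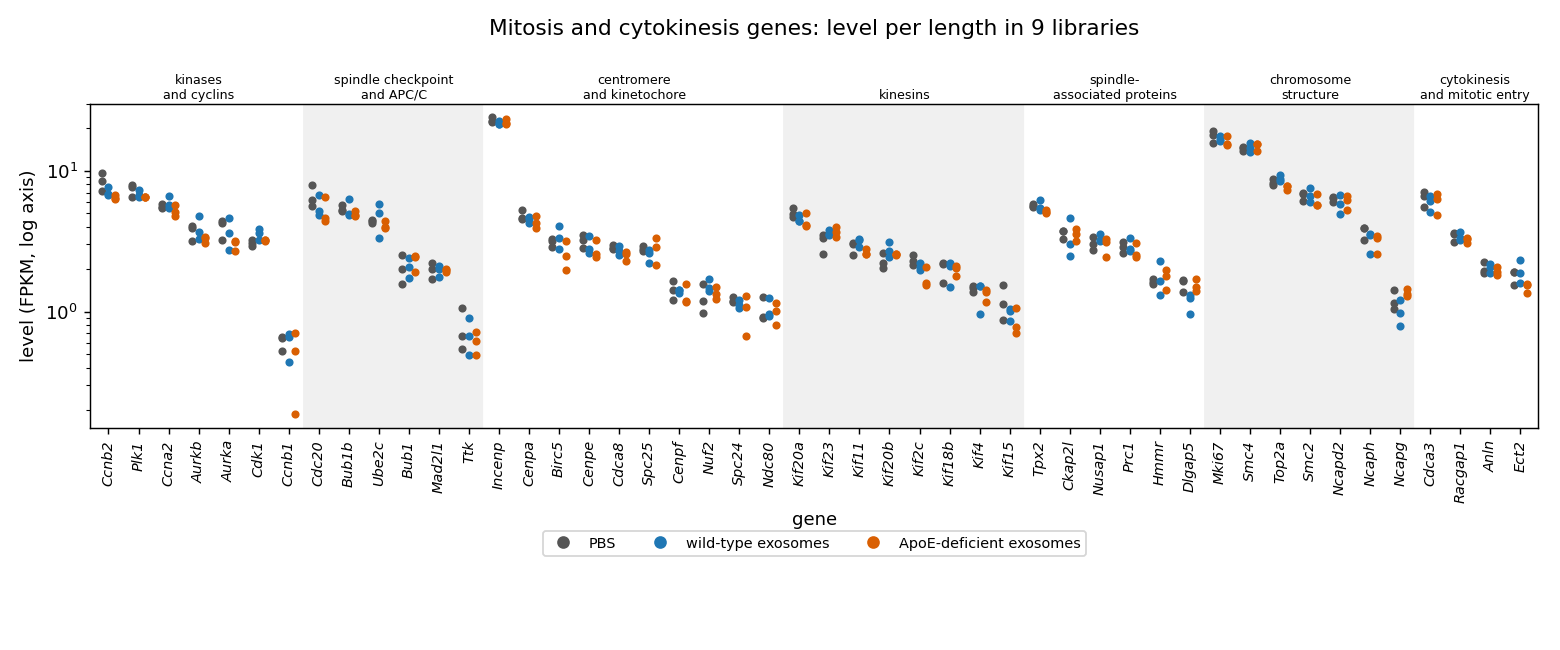
Level per transcript length (FPKM, log axis) of the 48 genes in each of 9 libraries, grouped by role and ordered by mean level within each role, with points coloured by treatment. Incenp is highest at 22.3 FPKM and Ccnb1 lowest at 0.56 FPKM, and the treatments overlap for most genes.

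Subunits of a shared complex were not at equal levels. Within condensin I, the ring that compacts chromosomes, Smc4 was at 12.3 times the level of Ncapg per length, and within the chromosomal passenger complex Incenp was at 8.26 times that of Cdca8. The 4 subunits of the NDC80 complex, which couples kinetochores to microtubules, lay within 2.65-fold of each other, and Kif23 and Racgap1, the centralspindlin pair, within 1.04-fold. Between the cyclins of Cdk1 the ratio was 13.1, from Ccnb2 to Ccnb1. Exon lengths summed over all annotated isoforms understate the level of a gene whose long isoforms are unused. Ccnb1 also shares 18.9%, 13.4%, 11.1% and 5.28% of its 50-base stretches with the processed pseudogenes Ccnb1-ps, Gm12856, Gm8416 and Gm4870, which were listed at 0 to 7 counts. How reads from such stretches were counted was not stated in the sources used here.

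The 48 genes together took 0.0975% to 0.118% of the counts of a library. Their summed level was 1086, 1170 and 1074 CPM in the PBS libraries, 1051, 1111 and 1122 CPM after wild-type exosomes, and 980.4, 1089 and 1047 CPM after ApoE-deficient exosomes. Replicate 1 of ApoE-deficient exosomes was the lowest and replicate 2 of PBS the highest, and all 3 groups overlapped. In bulk RNA, fewer dividing cells and less RNA per dividing cell cannot be told apart.

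None of the 48 genes passed the threshold, an edgeR quasi-likelihood p adjusted by Benjamini-Hochberg over all 13815 genes of under 0.05, in any comparison. In ApoE-deficient exosomes versus PBS 0 of 48 passed, where 4.23% of all genes tested did (0 higher beside 1.82%, 0 lower beside 2.41%), and 6 had an unadjusted p under 0.05 (13.1% of all genes). In wild-type exosomes versus PBS 0 passed (4.11% of all genes, 1.93% higher and 2.18% lower) and 2 had an unadjusted p under 0.05 (14.0%). Between the exosomes 0 passed (0.695% of all genes, 0.282% higher and 0.413% lower) and 6 had an unadjusted p under 0.05 (8.15%). In the test for a difference among any of the groups 0 passed (5.28%) and 4 had an unadjusted p under 0.05 (14.8%). The libraries of the groups compared did not overlap for 6, 2 and 7 of the 48 genes in the 3 comparisons, where this held for 18.3%, 17.5% and 14.0% of all genes tested. DESeq2 called 0, 0 and 1 in the 3 comparisons and limma-voom 0 in each. The single DESeq2 call was Top2a between the exosome groups (adjusted p = 0.0493).

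The width of the intervals set what could be seen. The unadjusted 95% interval of the fold change lay within a 1.5-fold change either way for 38 of 48 genes in ApoE-deficient exosomes versus PBS, 40 in wild-type exosomes versus PBS and 38 between the exosome groups. Within a 2-fold change lay 47, 48 and 47 of them, Ccnb1 being the exception. The median coefficient of variation between libraries of a group was 11.7%, where counting error alone at these depths (28 to 6317 counts per gene and library, median 457) gave 4.68%.

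The fold changes of the list leaned to values below 0 after ApoE-deficient exosomes. Against PBS, 40 of 48 log2 fold changes were below 0 (83.3%, against 50.2% of all genes tested), with a median of -0.123 beside -0.001 for all genes. Against wild-type exosomes 36 of 48 were below 0 (75.0% against 49.9%), with a median of -0.104 beside 0.0. For wild-type exosomes versus PBS 29 were below 0 (60.4% against 50.8%), with a median of -0.029 beside -0.003. These comparisons share libraries, and the genes vary together, so the counts are a description of these 9 libraries. Without replicate 2 of PBS the median against PBS was -0.0804 with 34 genes below 0, and that of wild-type exosomes versus PBS turned to 0.0106 with 21 below 0. Without replicate 1 of ApoE-deficient exosomes the median against PBS was -0.0825 with 33 below 0, and that between the exosome groups -0.0527 with 32 below 0. Without either library 3 in place of 6 genes had an unadjusted p under 0.05 against PBS.

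**Figure D3:**
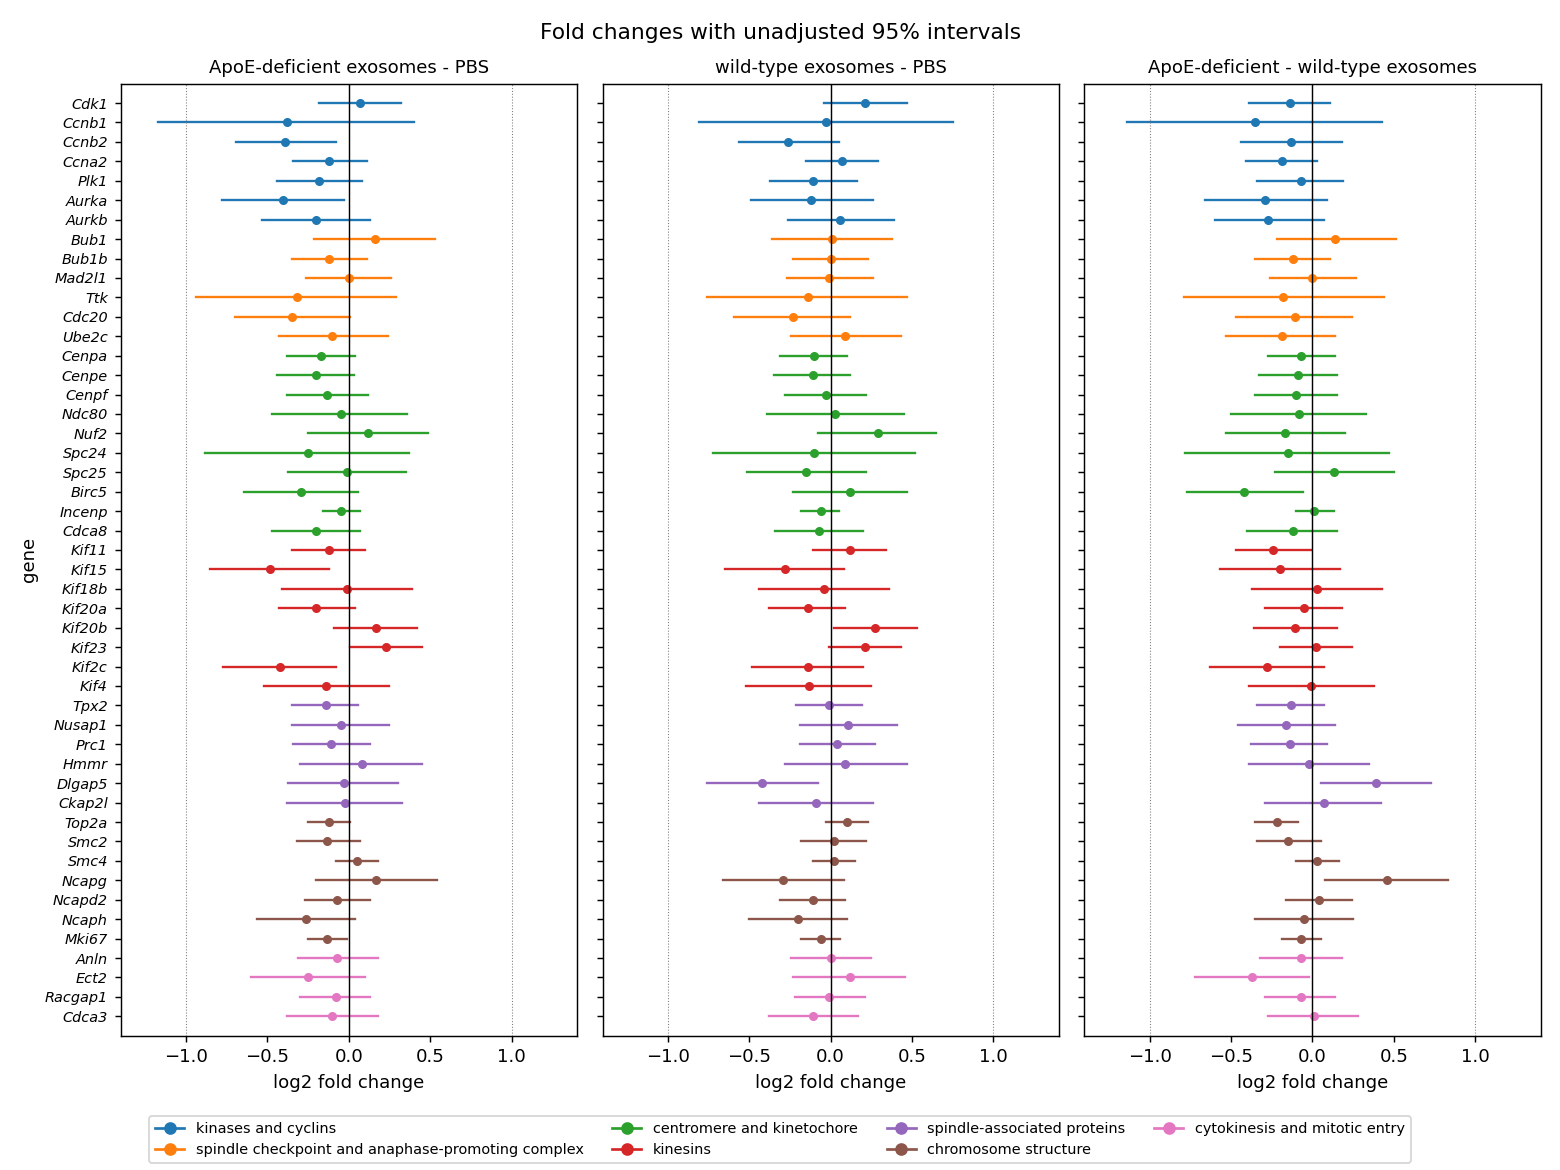
Log2 fold change (horizontal axis) of each of the 48 genes (vertical axis, coloured by role) in the 3 comparisons, with points for the edgeR estimate and lines for its unadjusted 95% interval. Dotted lines mark a 2-fold change; 40, 29 and 36 of the points lie below 0, and none passed the adjusted threshold.

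The kinases and cyclins start and order mitosis. Cdk1 with cyclin B drives entry, Plk1 and Aurora A (Aurka) build the spindle poles, and Aurora B (Aurkb) corrects faulty attachments. All 7 genes were below 0 between the exosome groups (median -0.188) and 6 against PBS after ApoE-deficient exosomes (median -0.201), with none past the threshold. Ccnb2 was at 11.1, 13 and 14.8 CPM after PBS, 10.5, 10.3 and 11.8 CPM after wild-type exosomes, and 9.68, 10.2 and 9.88 CPM after ApoE-deficient exosomes. The ApoE-deficient libraries lay below all the others, by a narrow margin from wild-type exosomes (10.2 against 10.3 CPM). The log2 fold change against PBS was -0.39 ± 0.15 (SE; edgeR adjusted p = 0.199). Aurka was at 8.13, 10.7 and 11.2 CPM after PBS, 11.7, 6.94 and 9.11 CPM after wild-type exosomes and 6.8, 8.07 and 7.93 CPM after ApoE-deficient exosomes. The ApoE-deficient libraries lay below all PBS libraries, by a narrow margin, while wild-type exosomes spanned both groups (-0.40 ± 0.18 against PBS; edgeR adjusted p = 0.322). Plk1, highest in the group per length after Ccnb2, was at 14.4, 17.0 and 17.4 CPM, at 16.1, 14.3 and 14.8 CPM, and at 14.3, 14.4 and 14.3 CPM in the same order of groups. The spread of the ApoE-deficient libraries was small, and replicate 1 of PBS lay beside them (-0.18 ± 0.13; edgeR adjusted p = 0.643). Cdk1 itself was at 15.1 ± 0.743 CPM (SD, n = 3 in each group) after PBS, 17.5 ± 1.63 after wild-type and 15.9 ± 0.111 after ApoE-deficient exosomes, and these ranges overlapped. Ccnb1, at 28 to 102 counts per library, was at 2.8, 2.74 and 2.21 CPM after PBS, 2.8, 1.83 and 2.94 CPM after wild-type exosomes and 0.783, 2.2 and 2.95 CPM after ApoE-deficient exosomes. Replicate 1 of the last group lay far below all other libraries, and the 95% interval versus PBS was wide, from -1.17 to 0.40.

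The spindle checkpoint holds anaphase until every chromosome is attached, and the anaphase-promoting complex with Cdc20 then degrades cyclin B and securin. Of these 6 genes, 5 were below 0 in ApoE-deficient exosomes versus PBS, with a median of -0.111. Cdc20 was at 10.6, 14.9 and 11.5 CPM after PBS, 9.75, 12.7 and 9.04 CPM after wild-type exosomes and 8.65, 8.18 and 12.2 CPM after ApoE-deficient exosomes. All groups overlapped, replicate 3 of ApoE-deficient exosomes lying among the PBS libraries (-0.35 ± 0.17 against PBS; edgeR adjusted p = 0.396). Of its 50-base stretches, 10.3% are shared with the pseudogene Gm7856, listed at 0 to 1 counts. Bub1b, the checkpoint protein BubR1, was at 22.4, 24.4 and 22 CPM after PBS, 21.1, 27.0 and 20.6 CPM after wild-type exosomes and 20.8, 22.1 and 20.3 CPM after ApoE-deficient exosomes, with all groups overlapping (-0.12 ± 0.11). Mad2l1, which binds Cdc20 while the checkpoint is on, had group means of 16.5 ± 2.17, 16.4 ± 1.56 and 16.5 ± 0.386 CPM. Its 95% interval against PBS after ApoE-deficient exosomes was -0.26 to 0.26.

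The centromere and kinetochore genes anchor chromosomes to microtubules. Of 10 genes, 9 were below 0 in ApoE-deficient exosomes versus PBS (median -0.149), 7 in wild-type exosomes versus PBS (median -0.068) and 8 between the exosome groups (median -0.096). Birc5, or survivin, which brings the chromosomal passenger complex to the centromere, was at 11.2, 10.8 and 9.77 CPM after PBS, 9.51, 13.8 and 11.3 CPM after wild-type exosomes and 10.7, 6.71 and 8.46 CPM after ApoE-deficient exosomes. Replicates 2 and 3 of ApoE-deficient exosomes were the lowest of the 9 libraries and replicate 1 lay within both other groups. Between the exosomes its log2 fold change was -0.42 ± 0.17 (edgeR adjusted p = 0.455). Cenpe, the kinesin that carries chromosomes to the spindle equator, was at 24.3, 29.9 and 27.8 CPM, at 23.9, 29.5 and 22.5 CPM, and at 21.2, 22.2 and 27.9 CPM after PBS, wild-type and ApoE-deficient exosomes. Those groups overlapped (-0.20 ± 0.12 for ApoE-deficient exosomes versus PBS; edgeR adjusted p = 0.497). Incenp was at 96.1, 104 and 97.1 CPM after PBS, 93.1, 93.5 and 98.3 CPM after wild-type exosomes and 92.5, 101 and 94.2 CPM after ApoE-deficient exosomes. It had the narrowest interval of the list in ApoE-deficient exosomes versus PBS, -0.16 to 0.07. Cenpa, the histone H3 variant that marks the centromere, was at 26.8, 27.2 and 30.9 CPM, 26.4, 25.0 and 27.7 CPM, and 22.9, 27.9 and 24.9 CPM in the same order, with overlap throughout. Cdca8, or borealin, was at 14.8 ± 0.43 CPM after PBS and 12.9 ± 0.939 CPM after ApoE-deficient exosomes without overlap (-0.20 ± 0.13; edgeR adjusted p = 0.61).

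Mitotic kinesins are motors that slide, bundle or shorten microtubules. The 8 genes included the lowest p of the list against PBS, and 6 were below 0 after ApoE-deficient exosomes. Kif15 (ENSMUSG00000036768, chromosome 9, 122951046 to 123018733 in GRCm38, protein-coding), a motor that helps keep spindle poles apart, was at 12.5, 16.9 and 9.57 CPM after PBS, 11.2, 11.5 and 9.37 CPM after wild-type exosomes and 7.72, 11.7 and 8.57 CPM after ApoE-deficient exosomes. The groups overlapped, and replicate 2 of PBS was far above the rest. Its log2 fold change for ApoE-deficient exosomes versus PBS was -0.48 ± 0.18 (edgeR adjusted p = 0.16). Without replicate 3 of PBS, the lowest of that group, it passed (-0.662, edgeR adjusted p = 0.0324). Kif2c, a depolymerase of centromeric microtubules, was at 9.28, 10.9 and 10.0 CPM after PBS, 8.62, 9.72 and 9.08 CPM after wild-type exosomes and 6.69, 8.98 and 6.95 CPM after ApoE-deficient exosomes. The ApoE-deficient libraries lay below all PBS libraries (-0.42 ± 0.17; edgeR adjusted p = 0.216).

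Kif23, the motor of centralspindlin at the midzone, had values above 0 versus PBS in both exosome groups. It was at 20.4, 26.2 and 27.6 CPM after PBS, 27.7, 28.1 and 29.9 CPM after wild-type exosomes and 26.6, 31.4 and 29 CPM after ApoE-deficient exosomes. Wild-type exosomes lay above all PBS libraries by a narrow margin (27.7 against 27.6 CPM), and replicate 1 of PBS was the lowest of the 9. The log2 fold changes against PBS were 0.23 ± 0.11 after ApoE-deficient exosomes (edgeR adjusted p = 0.334) and 0.21 ± 0.11 after wild-type exosomes (edgeR adjusted p = 0.386). Kif20b, another cytokinesis kinesin, was at 15.9 ± 2.01, 19.2 ± 2.27 and 17.8 ± 0.229 CPM after PBS, wild-type and ApoE-deficient exosomes, and its 0.27 ± 0.13 for wild-type exosomes versus PBS did not pass either (edgeR adjusted p = 0.304). Kif20a, which brings the passenger complex to the midzone, was at 20.4, 23.6 and 21.5 CPM, 19.2, 19.0 and 21.1 CPM, and 17.6, 21.7 and 17.8 CPM in the same order, with overlap. Exons of other genes cover 29.3% of its exon length, mainly those of Cdc23, so reads there cannot be assigned with certainty. Kif11, the motor that pushes spindle poles apart, was at 23.2 ± 1.6 CPM after wild-type and 19.7 ± 0.982 CPM after ApoE-deficient exosomes, without overlap (-0.24 ± 0.11; edgeR adjusted p = 0.564).

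Among spindle-associated proteins, Dlgap5 (ENSMUSG00000037544, chromosome 14, 47387779 to 47418407, protein-coding), which stabilises the fibres at kinetochores, had the lowest adjusted p of the list in wild-type exosomes versus PBS. It was at 9.38, 11.5 and 11.2 CPM after PBS, 6.52, 8.9 and 8.55 CPM after wild-type exosomes and 10.1, 11.7 and 9.59 CPM after ApoE-deficient exosomes. The wild-type libraries lay below all the others, and the other groups overlapped. Its log2 fold change for wild-type exosomes versus PBS was -0.42 ± 0.17 (edgeR adjusted p = 0.19), and between the exosome groups it was 0.39 ± 0.17 (edgeR adjusted p = 0.486). Tpx2, which activates Aurora A on the spindle, was at 26.1, 27.0 and 26.4 CPM after PBS, 29, 24.6 and 25.3 CPM after wild-type exosomes and 24.0, 24.6 and 23.4 CPM after ApoE-deficient exosomes. The last group lay below PBS, with a log2 fold change of -0.14 ± 0.10. Ckap2l, a spindle pole protein, varied most among the wild-type libraries, at 7.8, 9.46 and 14.4 CPM, against 10.4, 11.6 and 11.7 CPM after PBS and 9.99, 12.1 and 11.2 CPM after ApoE-deficient exosomes.

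The chromosome structure genes include the most strongly counted members. Top2a (ENSMUSG00000020914, chromosome 11, 98992943 to 99024189, protein-coding) was at 74.2, 79.4 and 71.2 CPM after PBS, 76.5, 84.9 and 79.1 CPM after wild-type exosomes and 65.8, 70.8 and 70.1 CPM after ApoE-deficient exosomes. All ApoE-deficient libraries lay below all PBS libraries, by a narrow margin (70.8 against 71.2 CPM), and below all wild-type libraries. PBS and wild-type exosomes overlapped. Its log2 fold change between the exosome groups was -0.22 ± 0.06, with an unadjusted 95% interval of -0.35 to -0.09 (edgeR adjusted p = 0.132). This was the lowest adjusted p of the list between the exosome groups, and in the test for any group as well (edgeR adjusted p = 0.0919). Against PBS it was -0.12 ± 0.06 after ApoE-deficient and 0.10 ± 0.06 after wild-type exosomes. Mki67 (ENSMUSG00000031004, chromosome 7, 135689784 to 135716361, protein-coding) was at 182, 192 and 159 CPM after PBS, 164, 169 and 179 CPM after wild-type exosomes and 153, 179 and 156 CPM after ApoE-deficient exosomes. The groups overlapped (-0.13 ± 0.06 for ApoE-deficient exosomes versus PBS; edgeR adjusted p = 0.316). Without replicate 3 of PBS it passed (-0.204, edgeR adjusted p = 0.0285).

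The condensin subunits differed in the sign of their fold changes, none of which passed. Smc4 was at 75.9, 76.8 and 72.2 CPM after PBS, 70.5, 81.9 and 75.7 CPM after wild-type exosomes and 71.9, 80.5 and 80.3 CPM after ApoE-deficient exosomes, with overlap throughout. Ncapg, a HEAT-repeat subunit, was at 7.36, 10.1 and 8.19 CPM, 6.86, 8.58 and 5.55 CPM, and 10.3, 9.36 and 9.15 CPM in the same order. The ApoE-deficient libraries lay above all wild-type libraries, with a log2 fold change between the exosome groups of 0.46 ± 0.18, the highest of the list (edgeR adjusted p = 0.427). Exons of Lcorl hold 11.8% of its 50-base stretches. Smc2, Ncapd2 and Ncaph overlapped between the groups, with log2 fold changes between the exosome groups of -0.15, 0.04 and -0.05.

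Cytokinesis closes the cell cycle through RhoA, which Ect2 activates and which Racgap1, a subunit of centralspindlin, helps to place. Anln, or anillin, scaffolds the contractile ring, and Cdca3 triggers degradation of the mitotic inhibitor Wee1. All 4 genes were below 0 in ApoE-deficient exosomes versus PBS, with a median of -0.091. Ect2 was at 10.3, 10.2 and 8.27 CPM after PBS, 8.62, 10.1 and 12.5 CPM after wild-type exosomes and 8.28, 7.34 and 8.51 CPM after ApoE-deficient exosomes. The last group lay just below wild-type exosomes and overlapped PBS (-0.37 ± 0.17 between the exosome groups; edgeR adjusted p = 0.551). Racgap1 was at 25.5, 25.2 and 22.1 CPM, 22.7, 26.2 and 23.4 CPM, and 23.8, 21.6 and 23.3 CPM after PBS, wild-type and ApoE-deficient exosomes. Cdca3 was at 15.8, 20.1 and 19.0 CPM, 14.6, 17.5 and 19.1 CPM, and 13.9, 18.0 and 19.5 CPM. Neither separated the groups.

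**Figure D4:**
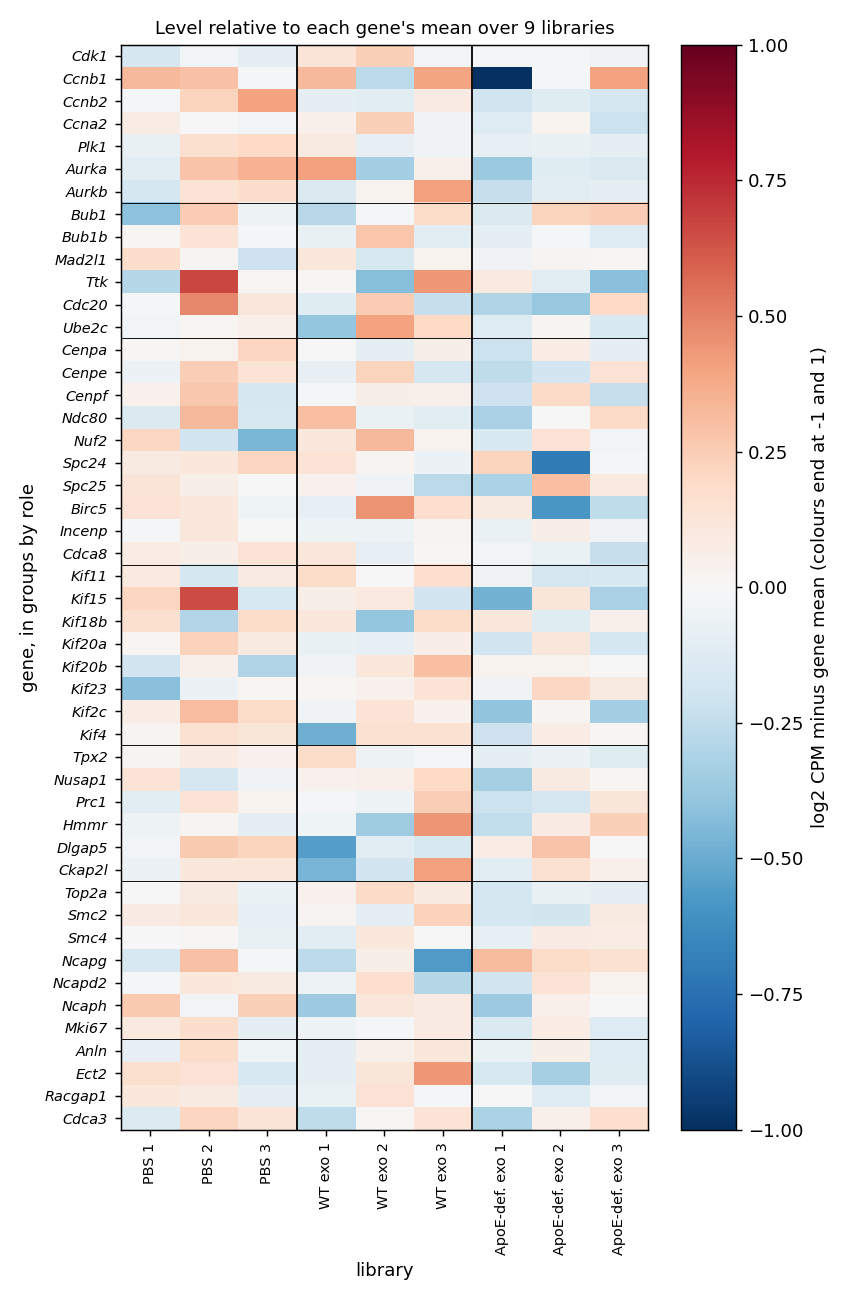
Log2 CPM of each of the 48 genes (rows, by role) in the 9 libraries (columns) minus the gene's mean over the libraries, with colours ending at -1 and 1. By its mean, replicate 1 of ApoE-deficient exosomes is the bluest column of its group, at -0.162, and replicate 2 of PBS the reddest of its group, at 0.135.

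The genes varied together to a modest degree. Over 1128 pairs of genes the mean Pearson r across the 9 libraries was 0.155 and the median 0.192, against a mean of 0.000133 over all pairs of genes tested, and 69.0% of the pairs were above 0. These values share libraries and depth and include any difference between groups. The mean centred log2 CPM of the list was 0.001, 0.135 and 0.023 after PBS, -0.04, 0.022 and 0.07 after wild-type exosomes, and -0.162, -0.017 and -0.032 after ApoE-deficient exosomes. On this scale the ApoE-deficient libraries lay below all PBS libraries by a narrow margin (-0.017 against 0.001), and wild-type exosomes spanned both. The 10 genes outside the list with the highest Pearson r to this mean, among 9206 ranked over the 9 libraries, were Fadd (0.957), E2f8 (0.92), Cbx5 (0.92), Smap2 (0.911), Pdgfb (0.909), Sla (0.902), Mapk3 (0.89), Golph3l (0.889), M6pr (0.889) and Dab2 (0.876). The ranking left out predicted genes and those under a minimum mean level. The highest of 9206 values over 9 libraries are high in part because they were selected, so these are a description.

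Other cell cycle genes were counted from lists written by function. Of 65 other G2 and M phase genes, 0 passed the threshold in any comparison, beside 4.23%, 4.11% and 0.695% of all genes tested. The lowest p was that of Wee1, the kinase that restrains Cdk1, at 8.71 ± 1.76 CPM after PBS and 12.4 ± 1.22 CPM after wild-type exosomes (log2 fold change 0.51 ± 0.16; edgeR adjusted p = 0.0705). Their median log2 fold change was -0.059 in ApoE-deficient and 0.03 in wild-type exosomes, each versus PBS, and -0.131 between the exosome groups. In the last comparison 47 of the 65 were below 0 (72.3%), close to the 75.0% of the mitosis genes.

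Of 43 DNA replication and S phase genes, 1 rose and 1 fell in ApoE-deficient exosomes versus PBS. In wild-type exosomes versus PBS 3 rose, and 1 was lower between the exosome groups. Of all genes tested, 4.23%, 4.11% and 0.695% passed in these comparisons. The median log2 fold changes of the 43 genes were -0.065, 0.054 and -0.109, with 26, 16 and 34 of them below 0 (60.5%, 37.2% and 79.1%). A lean below 0 between the exosome groups was thus present in these lists as well as in the mitosis genes. The mean centred log2 CPM of both lists was also lower in all ApoE-deficient than in all PBS libraries. For other G2 and M phase genes it was -0.085 to -0.04 against -0.025 to 0.066. For DNA replication and S phase genes it was -0.152 to -0.038 against 0.004 to 0.033. Pcna, the sliding clamp of DNA polymerases, was at 109, 110 and 115 CPM after PBS, 134, 136 and 149 CPM after wild-type exosomes and 129, 138 and 136 CPM after ApoE-deficient exosomes. Both exosome groups lay above all PBS libraries, with log2 fold changes of 0.32 ± 0.05 (edgeR adjusted p = 3.54e-05) and 0.27 ± 0.05 (edgeR adjusted p = 0.000457), and the calls held under all 15 alternatives run. Brca2, which acts in DNA repair by homologous recombination, rose after wild-type exosomes from 5.78 ± 0.654 to 9.71 ± 1.57 CPM (0.75 ± 0.19; edgeR adjusted p = 0.0124, and 0.122 without replicate 3 of wild-type exosomes). The replicative helicase subunit Mcm3 rose there from 54.0 ± 3.78 to 65.7 ± 2.05 CPM (0.28 ± 0.071; edgeR adjusted p = 0.013, and 0.0858 without replicate 2 of PBS). Thymidine kinase, Tk1, fell after ApoE-deficient exosomes from 10.1 ± 1.91 to 6.28 ± 2.01 CPM (-0.69 ± 0.20; edgeR adjusted p = 0.0362, and 0.29 without replicate 2 of PBS). Mcm6 was at 125 ± 4.82 CPM after wild-type and 108 ± 7.35 CPM after ApoE-deficient exosomes (-0.21 ± 0.053; edgeR adjusted p = 0.0449). That call was lost in 6 of 15 alternatives, with an adjusted p of up to 0.422 without replicate 1 of ApoE-deficient exosomes.

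Of 26 transcription regulators of the cycle, which include the E2F, DREAM and FOXM1 genes, E2f8 alone passed, and only in ApoE-deficient exosomes versus PBS. In that comparison 4.23% of all genes tested passed, and 18 of the 26 regulators were below 0 (median -0.076). In wild-type exosomes versus PBS 13 were below 0 (median 0.006), and between the exosome groups 14 (median -0.02). E2f8, a repressor of E2F target genes, was at 16.8, 20.1 and 17.1 CPM after PBS, 14.0, 16.9 and 16.5 CPM after wild-type exosomes and 10.5, 12.8 and 12.8 CPM after ApoE-deficient exosomes. The last group lay below all the others, with a log2 fold change against PBS of -0.58 ± 0.14 (edgeR adjusted p = 0.00563). The call was lost in 2 of 15 alternatives, with an adjusted p of 0.0702 without replicate 1 of ApoE-deficient exosomes, and exons of other genes cover 11.2% of its exon length. Of 8 G1 cyclins and kinases 0 passed, the lowest p being that of Ccnd1, cyclin D1, in wild-type exosomes versus PBS (0.24 ± 0.074; edgeR adjusted p = 0.0688). Exons of other genes cover 23.4% of the exon length of Ccnd1.

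Of 15 inhibitors of the cycle, 1 passed, in ApoE-deficient exosomes versus PBS, where 4.23% of all genes tested did. Below 0 were 10 of them in that comparison (median -0.075), 11 in wild-type exosomes versus PBS (median -0.142) and 7 between the exosome groups (median 0.002). Their mean centred log2 CPM was 0.058 to 0.171 after PBS and lower in every exosome library, at -0.11 to 0.016. Cdkn1a, the Cdk inhibitor p21, was at 96.7, 99.1 and 103 CPM after PBS, 77.6, 92.6 and 93.6 CPM after wild-type exosomes and 76.4, 79.5 and 85.4 CPM after ApoE-deficient exosomes. It fell by 0.31 ± 0.064 on the log2 scale after ApoE-deficient exosomes versus PBS (edgeR adjusted p = 0.00154). Among 12 genes of the M-CSF receptor and its proliferative signal, Csf1r and Maf fell in both exosome groups versus PBS. Of all genes tested, 2.41% and 2.18% passed as lower in ApoE-deficient and wild-type exosomes versus PBS. Csf1r, the receptor, fell from 4050 ± 137 CPM to 3330 ± 97.6 CPM (-0.28 ± 0.027; edgeR adjusted p = 2.35e-09) after ApoE-deficient and 3470 ± 63.4 CPM (-0.22 ± 0.027; edgeR adjusted p = 4.54e-07) after wild-type exosomes. Maf, a transcription factor that restrains macrophage self-renewal, fell from 448 ± 3.78 CPM to 379 ± 3.8 CPM (-0.24 ± 0.033; edgeR adjusted p = 2.95e-06) and 400 ± 10.3 CPM (-0.16 ± 0.033; edgeR adjusted p = 0.00125) in the same order. The comparisons with PBS share their control libraries. Exons of other genes cover 15.1% of the exon length of Csf1r, 7.68% of that of Cdkn1a and 5.34% of that of Maf.

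**Figure D5:**
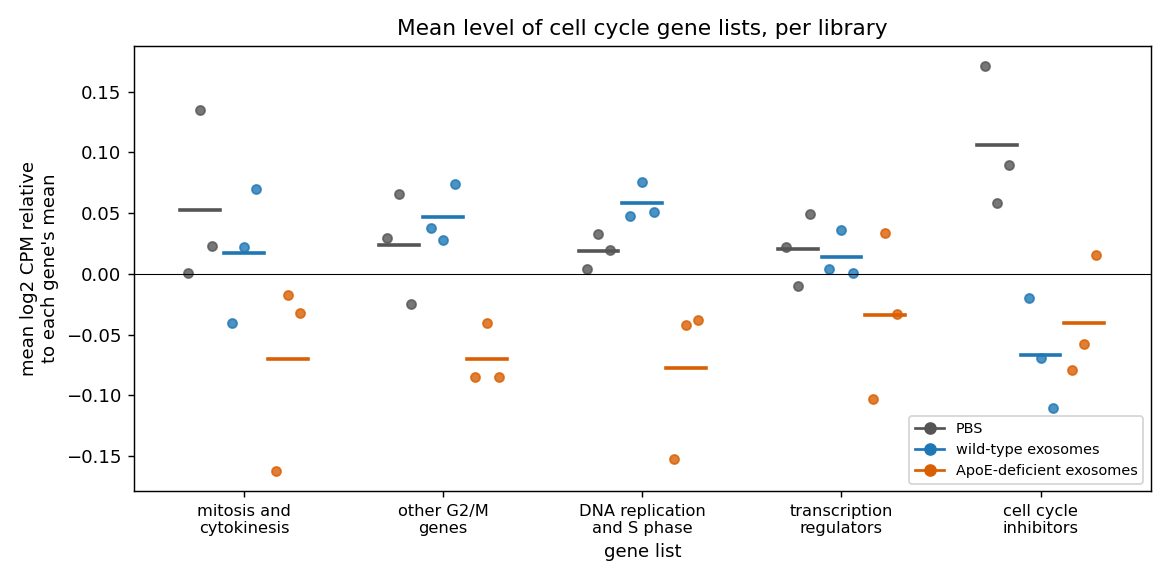
Mean log2 CPM of 5 cell cycle gene lists, each gene centred on its mean over the 9 libraries (vertical axis), with a point for each library and a bar for the mean of each group of 3. For mitosis and cytokinesis genes the ApoE-deficient libraries lie between -0.162 and -0.017 and the PBS libraries between 0.001 and 0.135. The ApoE-deficient libraries also lie below all PBS libraries for other G2/M genes, DNA replication and S phase genes and inhibitors. For transcription regulators these groups overlap.

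Markers of other cell types that marrow cultures can hold were read beside these results. Dividing granulocyte precursors carry mitotic transcripts of their own. The list examined holds markers of neutrophils and of granulocyte precursors together, so its sum does not tell dividing from mature cells. Of its 12 markers 6 passed the filter, Prtn3 and Ctsg were at 0 in all libraries, and none passed the threshold. Their summed level was 29.3 to 40.7 CPM after PBS, 19.4 to 38.9 CPM after wild-type exosomes and 12.7 to 23.6 CPM after ApoE-deficient exosomes, with Mmp8 and Ngp the highest. The 5 monocyte markers, all past the filter, summed to 37.8 to 40.4, 28.8 to 36.7 and 26.6 to 34.2 CPM, and the 7 markers of stem and progenitor cells to 12.7 to 16.1, 11.6 to 14.0 and 12.0 to 16.9 CPM. The 5 megakaryocyte markers, of which 2 passed the filter and Gp9, Gp1bb and Ppbp were at 0, summed to 5.54 to 6.88, 6.61 to 8.59 and 3.55 to 5.42 CPM. The neutrophil, monocyte and megakaryocyte sums were lower in all ApoE-deficient libraries than in all PBS libraries, as was the mean of the mitosis genes. So was the sum of the macrophage markers, given above. The monocyte and macrophage sums were also lower in all wild-type libraries than in all PBS libraries. The mean of the mitosis genes overlapped PBS there. Pf4 alone made up 95.2% of the megakaryocyte sum, F13a1 54.4% of the monocyte sum and Lyz2 51.1% of the macrophage sum. These sums therefore follow single genes to a large degree. Of the 12 macrophage markers, 10 passed the threshold in ApoE-deficient and 9 in wild-type exosomes, each versus PBS. Of all genes tested, 4.23% and 4.11% passed in those comparisons. The part of these markers in the values of the mitosis genes was not tested. Of 7 erythroid markers 6 were at 0 in all libraries and the sum did not exceed 0.336 CPM. Markers of B cells, T and NK cells, mast cells and dendritic cells summed to at most 6.74 CPM per list and library. The 9 stromal and endothelial markers summed to 23.1 to 83.0 CPM after PBS, 36.3 to 47.4 CPM after wild-type exosomes and 20.3 to 41.3 CPM after ApoE-deficient exosomes, with Kdr and Col1a1 the highest and none past the threshold.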

How the data were processed

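The members, gene lists and tests were chosen with earlier results of these data known. Total RNA of 9 libraries was sequenced as mRNA libraries, per the labels' protocols. The authors deposited raw counts per Ensembl gene. The submitters' processing notes name STAR 2.7.5c and GRCm38. Which annotation release and strand setting the counting used is not given in the sources used here. Of 55536 IDs, 55450 matched a GENCODE M21 symbol.

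Counts were tested with edgeR 4.0.16 (R 4.3.3): filterByExpr at a minimum count of 10, TMM factors, a robust quasi-likelihood fit of the group to all 9 libraries, and Benjamini-Hochberg adjustment over 13815 genes at a threshold of 0.05. CPM values use TMM factors. Standard errors come from the fitted model. An exact permutation test of 3 against 3 libraries has a smallest p of 0.1 and was not used. The scripts were tested on simulated data. Alternatives were RLE factors, no filter, DESeq2 1.42.0, limma-voom (limma 3.58.1), a replicate block, only the 6 libraries compared, and leaving out each library. Every pair of libraries differed by more than sampling noise (chi-square per gene 6.75 to 10.1 within groups).

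Members given by library were, in each role, the 2 with the lowest p among any of the groups and the 2 with the highest FPKM. From other lists, genes past the threshold were named, or, where none passed, the 1 with the lowest p. A limit of 4 per list was planned, but all 5 that passed among DNA replication and S phase genes were named. Other members are named as examples chosen after their values were seen. Lists of other lineages had no more than 2 genes named. One gene of the M-CSF signal list is not reported here.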

Additional observations from a re-analysis of the deposited data

How the results depend on the processing

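The count of mitosis genes past the threshold was 0 in edgeR under RLE factors, without a filter, with limma-voom and with only the 6 libraries compared. DESeq2 called 1 (Top2a, between the exosome groups). Leaving out each library in turn gave 0 to 2 in ApoE-deficient exosomes versus PBS, the 2 being Kif15 and Mki67 without replicate 3 of PBS, and 0 in the other comparisons. The median log2 fold change of the list ranged from -0.139 to -0.0804 in ApoE-deficient exosomes versus PBS, from -0.0637 to 0.0106 in wild-type exosomes versus PBS and from -0.13 to -0.0527 between the exosome groups. Over all genes, 96 calls between the exosome groups became 157 with DESeq2. Leaving out each library gave 52 to 109, with 52 to 59 without replicate 2 or 3 of wild-type exosomes or replicate 1 or 2 of ApoE-deficient exosomes. The cause was not tested. At a median of 457 counts per gene and library, the median spread between libraries of a group was 11.7%, where counting error alone gave 4.68%. The share of each in single genes was not tested.

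Whether replicate numbers pair the libraries is not stated, and correlations cannot decide it. Over all genes, deviations of same-numbered libraries correlated at -0.035 to 0.0402 and those of different-numbered libraries at -0.0483 to 0.0385. Over the mitosis genes these ranges were -0.104 to 0.176 and -0.206 to 0.204. With the replicate block 0 mitosis genes passed in any comparison, with medians of -0.121, -0.0302 and -0.105. The block moved the counts over all genes from 585 to 662, from 568 to 669 and from 96 to 144, in the order ApoE-deficient exosomes versus PBS, wild-type exosomes versus PBS and between the exosome groups.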
